A study of Mus musculus with 17 samples.

Results

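Heat shock chaperones are proteins that fold newly made or damaged proteins, and 10 of their genes were followed here in CD8 T cells sorted from mouse lung tumours. The 10 genes were taken by symbol from a table of read counts, and all 10 were found among its 27240 symbols: Hspa1a, Hspa1b, Dnajb1, Hsph1, Hspa8, Hsp90aa1, Hsp90ab1, Dnaja1, Hspd1 and Hspe1. All 10 passed the filter on low counts, which kept 20137 genes. None depended on a single group to pass, since the lowest count of any of them in any library was 125.

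Bulk RNA sequencing was done on 17 libraries. KO mice, named PDL1DEC in the design text, carried a deletion of PD-L1, which inhibits T cells through PD-1, in endothelial cells. Its controls were WT mice. Cells came from core-enriched tissue, dissected as macroscopic nodules of the lung tumours, or from rim-enriched tissue, taken as nodules of the parenchyma. There were 6 KO core libraries (F219, F318, F319, F322, F86 and O), 5 WT core libraries (F164, H719, H873, H876 and one labelled pool), 4 KO rim libraries (F15, F322, F86 and O) and 2 WT rim libraries (H874 and H877). No source used here gives the driver of the endothelial deletion, the strain, the age of the mice or the tumour model. What was combined in the library labelled pool is not stated. F322, F86 and O name both a KO core and a KO rim library. The labels do not say whether the libraries are of different animals. The p-values below therefore weigh a difference only against the library-to-library spread, which can be partly technical.

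Total counts ran from 21767045 to 32566456 per library. All 12 markers of T cell and CD8 identity were detected, at a summed 7910 to 13376 CPM (counts per 1000000 scaled counts). Markers of other cells were present as well, with 12 macrophage and monocyte markers summing to between 1043 CPM in the KO rim library F86 and 8711 CPM in the KO rim library O. The 8 dendritic cell markers summed to between 2059 CPM in KO core F319 and 21256 CPM in WT core H876. In H876 the T cell markers summed to 7910 CPM. The dendritic sum was 2706 CPM in WT rim H874 and 9697 CPM in WT rim H877. The 8 B and plasma cell markers summed to 197 CPM (KO core F319) to 3985 CPM (KO core F322). Cd274, which encodes PD-L1, was at 87.8 to 212 CPM in KO core, 114 to 220 CPM in WT core, 133 to 171 CPM in KO rim and 126 to 194 CPM in WT rim. That level does not check the genotype labels, because the sorted cells are not the endothelial cells in which the gene was removed. In bulk libraries, fewer cells of a type and less RNA per cell cannot be told apart.

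The chaperones work in layers. Hsp70 proteins bind exposed stretches of unfolded chains, and the J-domain proteins (the Dnaj genes) hand them clients and drive their ATP cycle. Hsp110 (Hsph1) resets Hsp70 by exchanging its nucleotide. Hsp90 finishes the folding of kinases and receptors, including kinases of the T cell receptor pathway. The Hsp60 barrel and its Hsp10 lid (Hspd1 and Hspe1) fold proteins inside mitochondria. The transcription factor HSF1 raises many of these genes after heat or protein damage by binding heat shock elements, which are inverted repeats of the unit GAA. Hspa1a, Hspa1b, Dnajb1 and Hsph1 are strongly inducible, whereas Hspa8, Hsp90ab1 and Dnaja1 are abundant in unstressed cells.

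Hspa1a and Hspa1b both encode inducible Hsp70 and lie 9951 bases apart on the minus strand of chromosome 17 (GRCm38), at 34969190 to 34972156 and 34956436 to 34959238. Their coding sequences differ at 11 of 1929 aligned columns, an identity of 99.4%, while the 3′ untranslated regions, 810 and 643 bases long in GENCODE M21, are dissimilar. No source used here says how reads matching both genes were counted, so the division of reads between the pair is uncertain, and the pair is also described as a sum. Neither gene has introns. The 250 bases before each start are shown because the pair varied most between libraries. A further reason is that both hold the same 2-unit match to a heat shock element. The sequences are from RefSeq (GRCm38.p6), read 5′ to 3′ on the minus strand, and capitals mark the 2-unit element GAANNTTC. Hspa1a is at chr17:34972157-34972406 and Hspa1b at chr17:34959239-34959488.
Hspa1a: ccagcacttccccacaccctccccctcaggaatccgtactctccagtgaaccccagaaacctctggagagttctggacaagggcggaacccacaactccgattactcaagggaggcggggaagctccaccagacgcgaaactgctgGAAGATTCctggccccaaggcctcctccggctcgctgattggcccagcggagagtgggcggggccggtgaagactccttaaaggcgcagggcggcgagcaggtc
Hspa1b: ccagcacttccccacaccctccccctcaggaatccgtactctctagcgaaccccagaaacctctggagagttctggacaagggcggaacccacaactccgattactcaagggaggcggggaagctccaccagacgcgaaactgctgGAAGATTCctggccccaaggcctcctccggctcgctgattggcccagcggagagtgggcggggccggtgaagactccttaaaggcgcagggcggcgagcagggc
Counting from 1 at the 5′ end of the 300-base RefSeq windows, of which the first 250 bases are shown, the 2 genes differ at 4 positions. Written with the Hspa1b base first, these are T44C, C47T, G249T and T276C. The element lies at bases -104 to -97 in both.

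Hspd1 and Hspe1 are transcribed in opposite directions from one shared region of chromosome 1, and their GENCODE extents, 55077835 to 55088243 on the minus strand and 55088132 to 55091307 on the plus strand, overlap by 112 bases. A single stretch there, chr1:55088053-55088082, holds 4 GAA units in alternating orientation. It is shown on both strands, with 1 site each of Hsph1 and Dnaja1, so that the shared element can be seen. Capitals mark the overlapping matches to GAANNTTC and TTCNNGAA.
Hspd1: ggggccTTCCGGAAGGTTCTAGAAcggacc
Hspe1: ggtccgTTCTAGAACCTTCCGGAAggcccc
Hsph1: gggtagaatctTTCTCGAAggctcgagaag
Dnaja1: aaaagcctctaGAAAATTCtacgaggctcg
The matches run from base -144 to -127 before 1 of the 2 Hspd1 starts in RefSeq and from base -89 to -72 before the Hspe1 start. The other Hspd1 start, at the 5′ end of the GENCODE extent, lies upstream of the stretch, and its window held no match. The Hsph1 site is at chr5:149636351-149636380 on the minus strand and the Dnaja1 site at chr4:40722333-40722362 on the plus strand. Both strands were covered by the search, because GAANNTTC and TTCNNGAA are their own reverse complements and the 3-unit forms GAANNTTCNNGAA and TTCNNGAANNTTC are each other's. RefSeq windows were found for 7 of the 10 genes, 12 windows in all, and Hspa8, Hsp90aa1 and Hsp90ab1 had none. Of the 7 genes, 6 held a 2-unit element in at least 1 window, against 16.97% of all 27025 genes with windows (15.1% of all 32851 windows). A 3-unit element was found for 3 of them, Hspd1, Hspe1 and Hsph1, against 0.662% of all genes (0.603% of all windows). Both counts include the shared stretch under Hspd1 and again under Hspe1. The 2-unit count also includes the near-identical windows of Hspa1a and Hspa1b, so these are not counts of separate sites. The Hsph1 3-unit match lies after the start, at bases 16 to 28 or 37 to 49 depending on the transcript. Neither of the 2 Dnajb1 windows held these letters. A match is a description of the window and not a measured binding site.

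On GRCm38 the remaining genes lie apart. Dnajb1 is at 83608193 to 83612653 on chromosome 8, Hsph1 at 149614287 to 149636376 on chromosome 5, Hspa8 at 40800984 to 40810087 on chromosome 9 and Dnaja1 at 40722150 to 40737149 on chromosome 4. Hsp90aa1 is at 110690605 to 110702728 on chromosome 12 and Hsp90ab1 at 45567775 to 45573271 on chromosome 17. Levels compared between genes are given per kilobase of the principal transcript. Hsp90ab1 and Hspa8, the constitutive cytosolic Hsp90 and Hsp70, led at 764 ± 167 and 725 ± 218 CPM per kb (SD, n = 17). Their order was not fixed, since Hsp90ab1 exceeded Hspa8 in 10 of 17 libraries. Dnaja1 followed at 175 CPM per kb, below Hspa8 in all 17 libraries. Hspd1 at 130 CPM per kb lay below Dnaja1 in 12 libraries and above Hspe1, at 111 CPM per kb, in all 17. Dnajb1 at 98.2, Hsp90aa1 at 92.7, Hspa1b at 65.7 and Hsph1 at 61.6 CPM per kb overlapped widely, with Dnajb1 above Hsp90aa1 in 9 libraries and Hspa1b above Hsph1 in 8. Hspa1a was lowest at 28.0 CPM per kb.

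The inducible Hsp70 pair varied far more than the others. The highest library exceeded the lowest 49.9-fold for Hspa1a and 55.1-fold for Hspa1b, whereas the median was 2.64-fold over the 10195 genes that averaged 5 CPM or more and had no library at 0. The corresponding ratio was 6.37 for Hsph1, 4.26 for Dnajb1, 4.10 for Dnaja1, 2.92 for Hspa8, 2.77 for Hsp90aa1, 2.47 for Hsp90ab1, 2.42 for Hspe1 and 2.08 for Hspd1. Both extremes of the pair were WT, with the highest value in the core library H719 and the lowest in the rim library H877.

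**Figure D1:**
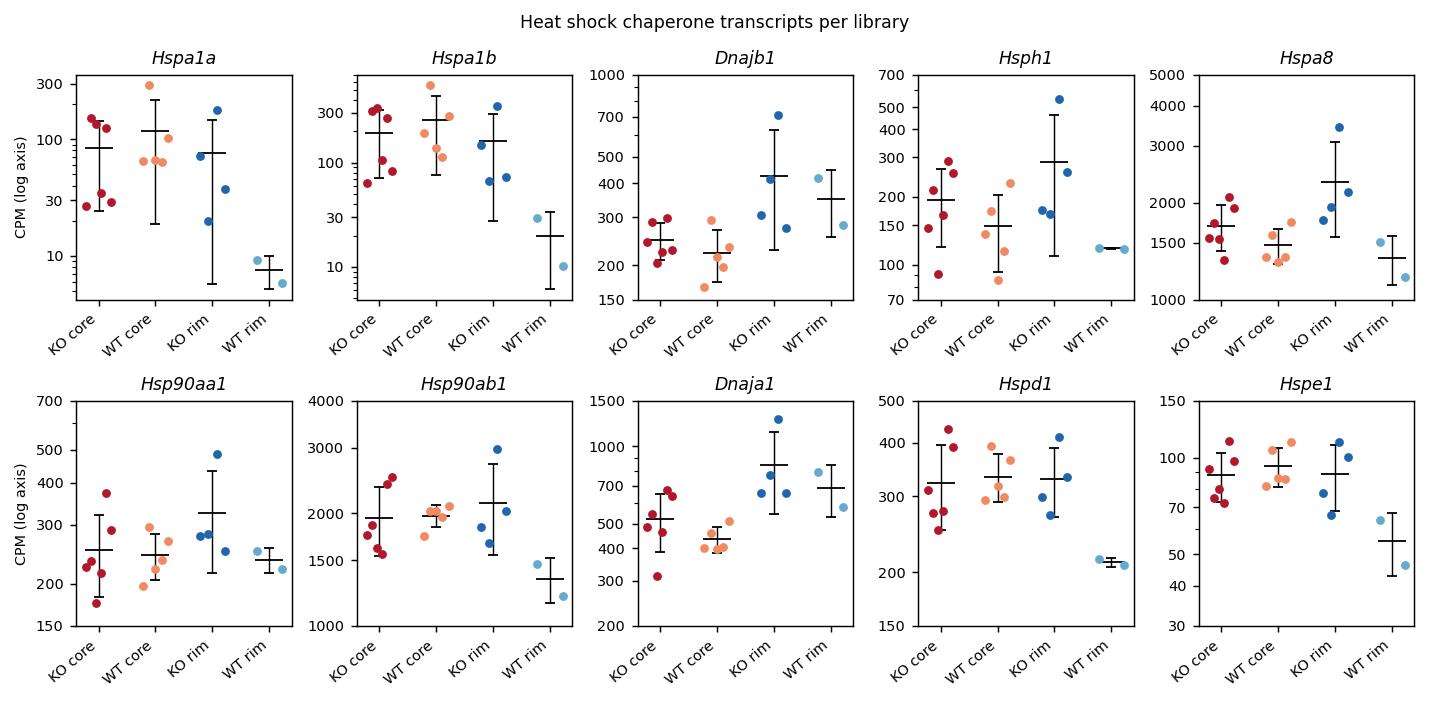
CPM of each of the 10 chaperone genes (vertical axes, log scale) in every library, one panel per gene, with groups along the horizontal axis in the order KO core, WT core, KO rim and WT rim. Points are libraries, and the horizontal marks and bars are the group mean and SD. The 2 WT rim libraries lie below all others for Hspa1a, Hspa1b, Hsp90ab1, Hspd1 and Hspe1.

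Some libraries stood apart across the genes. The KO rim library F86 was among the highest 3 libraries for all 10 genes and the highest for 6. The 10 genes together took 1.05% of its scaled counts, compared with 0.385% in the WT rim library H877, the lowest. The KO core library F86 was among the highest 3 for 6 genes and the highest for Hspd1 and Hspe1. The WT core library H719 was the highest for Hspa1a and Hspa1b. The WT rim library H877 was among the lowest 3 for 6 genes. Each comparison below was therefore also fitted without KO rim F86, without WT core H719, and without both.

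**Figure D2:**
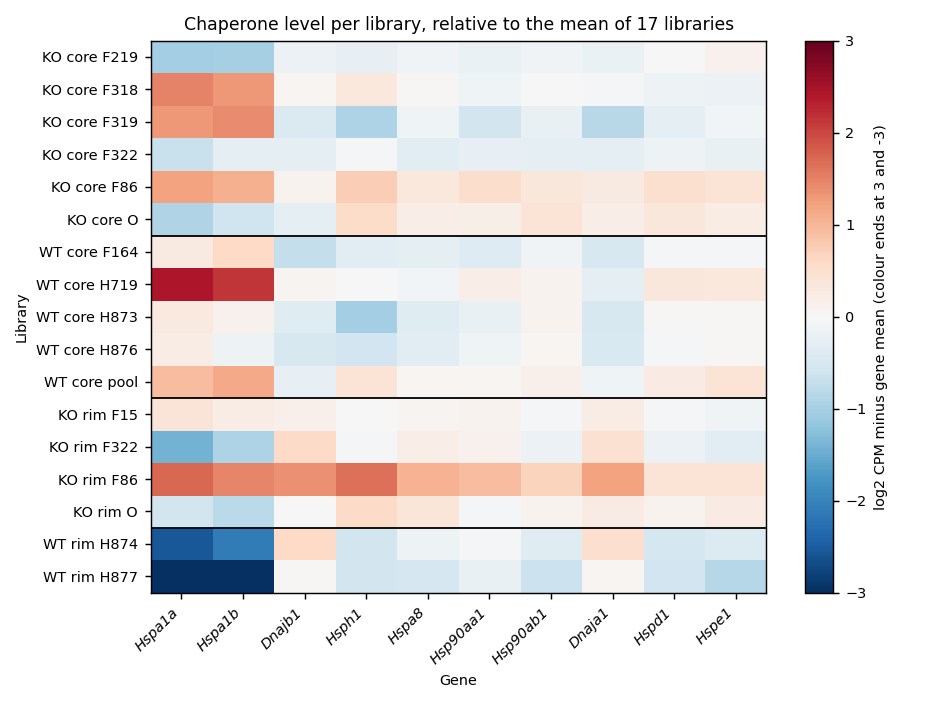
Heat map of log2 CPM minus the mean of each gene over 17 libraries, with genes along the horizontal axis and libraries down the vertical axis. The KO rim library F86 is above the mean for all 10 genes, and the WT rim libraries H874 and H877 are the lowest for Hspa1a and Hspa1b.

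KO and WT were first compared in the rim, which asks whether the loss of endothelial PD-L1 went with another chaperone level there. All 10 genes had a positive KO minus WT estimate, with a median log2 difference of 0.68, against 0.01 over all 20137 genes. None passed the test at an adjusted p under 0.05 (0% of all genes tested were called), and the adjusted p-values ran from 0.411 to 0.869. Unadjusted p-values were under 0.05 for 7 of the 10. Among all genes 1480 had an unadjusted p under 0.05, and DESeq2 called 272. For 8 genes every KO rim library exceeded both WT rim libraries, and the exceptions were Dnajb1 and Dnaja1. That arrangement was found for 6.86% of all genes tested, and its opposite for 6.81%. The 10 genes were read in the same rim libraries, and Hspa1a and Hspa1b are near-identical. Counts of genes in this paragraph are therefore not counts of separate observations.

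Hspa1a was at 71.3, 20.1, 178 and 37.1 CPM in the KO rim libraries F15, F322, F86 and O, against 9.28 and 5.87 CPM in the WT rim libraries H874 and H877. The WT values rest on 210 and 125 reads. Every KO rim library was above both WT rim libraries, but the KO libraries themselves spread widely. The log2 difference was 3.34 (SE 1.06, adjusted p = 0.449).

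Hspa1b showed the same order, at 149, 66.9, 349.9 and 72.7 CPM in KO rim and 29.6 and 10.1 CPM in WT rim, for a log2 difference of 3.004 (SE 0.943, adjusted p = 0.446). DESeq2, which called 272 of all genes in this comparison, called both, with adjusted p-values of 0.0260 for Hspa1a and 0.0446 for Hspa1b. Without KO rim F86 the log2 differences were 2.50 and 2.28.

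The Hspa1a share of the pair's reads ran from 23.1% (95% Wilson interval 21.3 to 24.9) in the KO rim library F322 to 36.7% (31.7 to 41.9) in the WT rim library H877. These intervals reflect counting error alone, since reads were not tagged by molecule and copies of 1 molecule can be counted more than once. The summed pair ran from 16.0 CPM in WT rim H877 to 851 CPM in WT core H719.

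Hspa8, the constitutive Hsp70, was at 1772, 1932, 3443 and 2151 CPM in KO rim and 1510.2 and 1178 CPM in WT rim. All 4 KO libraries were above both WT libraries, with F86 far above the other 3. The log2 difference was 0.79 (SE 0.241, adjusted p = 0.411). Hsp90ab1 was at 1839, 1669.8, 2978 and 2027 CPM in KO rim and 1466 and 1205 CPM in WT rim, a log2 difference of 0.67 (SE 0.228, adjusted p = 0.495).

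The mitochondrial chaperonins were tighter. Hspd1 was at 299, 272, 411 and 332 CPM in KO rim and 214 and 207 CPM in WT rim, with a log2 difference of 0.64 (SE 0.216, adjusted p = 0.494). Hspe1 was at 77.6, 66.3, 111 and 100.2 CPM in KO rim and 63.8 and 46.5 CPM in WT rim, with a log2 difference of 0.69 (SE 0.230, adjusted p = 0.488). The groups did not overlap for either gene, but for Hspe1 the lowest KO library was close to the higher WT library.

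Hsph1, the Hsp110 exchange factor, was at 175, 168, 546 and 258 CPM in KO rim and 119 and 118 CPM in WT rim. The log2 difference of 1.28 (SE 0.514, adjusted p = 0.626) was 0.76 without F86. Hsp90aa1, the inducible Hsp90, was at 278, 282, 485 and 251 CPM in KO rim and at 249.9 and 222 CPM in WT rim. The lowest KO library was within 1 CPM of the higher WT library, and the log2 difference was 0.46 (adjusted p = 0.732), or 0.20 without F86.

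The J-domain genes overlapped between genotypes. Dnajb1, the main J-partner of inducible Hsp70, was at 306, 413, 712 and 275 CPM in KO rim and 418 and 282 CPM in WT rim. Dnaja1, a farnesylated J-partner of Hspa8, was at 656, 772, 1279 and 657 CPM in KO rim and 796 and 577 CPM in WT rim. For both genes WT rim H874 was above 3 of the 4 KO libraries. The log2 differences were 0.28 and 0.29, and without F86 they were -0.07 and 0.02.

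Markers of other cells and of the cell cycle were measured in the same rim libraries. All 12 macrophage and monocyte markers had positive KO minus WT estimates, with a median log2 difference of 2.07 and 0 called. Their sum was 1043 to 8711 CPM in KO rim and 1468 to 2520 CPM in WT rim. F86, the KO rim library highest for the chaperones, had the lowest macrophage sum. All 20 cell cycle genes had positive estimates, 16 of them with an unadjusted p under 0.05, at a median of 1.04 and with 0 called. With the mean of markers of other cells as a covariate, the rim log2 differences were 3.48 for Hspa1a (adjusted p = 0.211), 3.202 for Hspa1b (adjusted p = 0.164) and 0.82 for Hspa8 (adjusted p = 0.211). That covariate is 1 mean over lists that ran in opposite directions. Median log2 differences were 1.63 for lung epithelium and tumour, -0.68 for dendritic cells and -0.55 for B and plasma cells. The part of macrophages alone was therefore not tested. The part of the cell cycle genes in the chaperone differences was not tested. The sum of 18 immediate early genes, which respond within minutes to stimulation or tissue dissociation, was 8921 to 11616 CPM in KO rim and 11456 to 11656 CPM in WT rim.

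**Figure D3:**
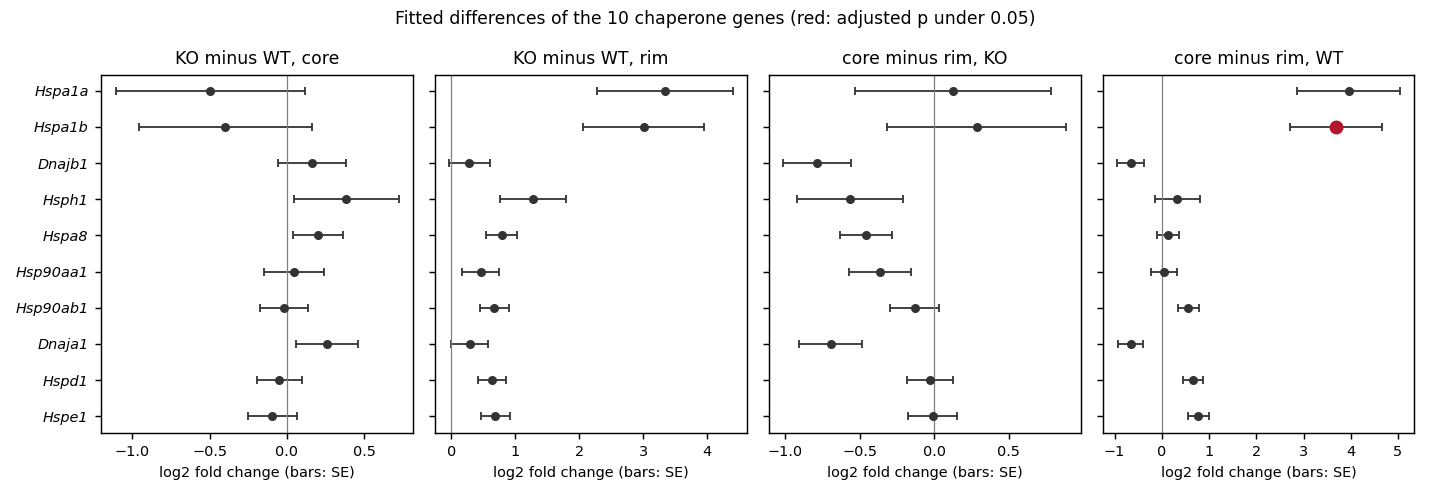
Fitted log2 fold changes of the 10 chaperone genes (horizontal axis, bars: SE), one panel per comparison, each with its direction in the panel title. All estimates of KO minus WT in the rim are above 0, while those in the core lie between -0.50 and 0.38; red points passed at an adjusted p under 0.05.

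The same comparison of genotypes in the core gave no common direction. Estimates were positive for 5 of the 10 genes, with a median log2 difference of 0.01, and no gene passed (0% of all genes tested). Among all genes 1244 had an unadjusted p under 0.05, the smallest adjusted p was 0.796, and DESeq2 called 12. The adjusted p was 1 for all 10 chaperones. No chaperone separated the groups, as 0.223% of all genes did upward and 0.174% downward.

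Hspa1a in KO core ranged from 26.7 CPM in F219 to 152 CPM in F318 with a median of 79.5 CPM, against 65.5, 293, 65.9, 63.1 and 103 CPM in the WT core libraries F164, H719, H873, H876 and pool. KO core divided into 3 libraries at 26.7 to 34.3 CPM (F219, F322 and O) and 3 at 125 to 152 CPM (F318, F319 and F86), and the lower 3 were below all 5 WT libraries while the upper 3 were above 4 of them. Hspa1b ranged from 64.0 to 338 CPM in KO core with a median of 186 CPM, against 192, 559, 138, 114 and 281 CPM in WT core. The log2 differences were -0.50 (SE 0.612) for Hspa1a and -0.40 (SE 0.557) for Hspa1b. Both turned with H719 left out, to 0.19 and 0.13.

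Hsph1 had the largest positive estimate in the core, 0.38 (SE 0.340), at 90.8 to 289 CPM in KO core with a median of 191 CPM, against 137, 173, 85.6, 116 and 231 CPM in WT core. Dnaja1 ranged from 312 to 674 CPM in KO core with a median of 515 CPM, against 401, 461, 398, 406 and 512 CPM in WT core, and Hspa8 from 1325 to 2077 CPM with a median of 1646 CPM, against 1360.45, 1591, 1309.6, 1358 and 1744 CPM. Their log2 differences were 0.26 (SE 0.200) and 0.20 (SE 0.163). The KO ranges enclosed the WT values of Dnaja1 and most of those of Hspa8.

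Dnajb1 ranged from 204 to 298 CPM in KO core with a median of 236 CPM, against 167, 294, 214, 198 and 234 CPM in WT core. Hsp90aa1 ranged from 175 to 371 CPM with a median of 229 CPM, against 198, 295, 222, 236 and 269 CPM. Hsp90ab1 ranged from 1554 to 2505 CPM with a median of 1804 CPM, against 1742, 2031, 2031, 1957 and 2093 CPM. For both Hsp90 genes the upper end of the KO core range was above all WT core libraries, set by F86 or O, while for Dnajb1 the upper ends nearly met.

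Hspd1 ranged from 250.5 to 430.3 CPM in KO core with a median of 294 CPM, against 294, 392, 317, 299.6 and 364 CPM in WT core. Hspe1 ranged from 72.4 to 112 CPM with a median of 85.8 CPM, against 81.6, 105, 86.5, 85.9 and 111 CPM. The log2 differences of Dnajb1, both Hsp90 genes and the mitochondrial pair lay between -0.09 and 0.16, each smaller than its standard error.

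Whether the genotype effect differed between sites was tested directly. The difference, the core effect minus the rim effect, was negative for all 10 genes, with a median of -0.69 against -0.01 over all genes, and none passed (0% of all genes tested were called). Hspa1a had the largest, -3.83 (SE 1.20, adjusted p = 0.491), then Hspa1b at -3.40 (SE 1.07, adjusted p = 0.499). Hspe1 was at -0.78 (SE 0.277), Hspd1 at -0.69 (SE 0.260) and Hsp90ab1 at -0.69 (SE 0.273). Among all genes 1547 had an unadjusted p under 0.05, 5 of them chaperones, and DESeq2 called 159 genes and no chaperone. Both terms of this difference share the libraries of the comparisons above and it is no separate evidence.

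Core and rim were then compared within WT, using the same 2 WT rim libraries as the genotype comparison in the rim. Hspa1b was the 1 chaperone called, where 3.86% of all genes tested were called and 2.1% were called higher. It was at 192, 559, 138, 114 and 281 CPM in WT core and 29.6 and 10.1 CPM in WT rim. The groups were far apart, with even the lowest core library well above the higher rim library. The log2 difference was 3.69 (SE 0.971, adjusted p = 0.0440).

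Hspa1a was at 65.5, 293, 65.9, 63.1 and 103 CPM in WT core and 9.28 and 5.87 CPM in WT rim. Its log2 difference of 3.96 (SE 1.09) just missed the threshold, at an adjusted p of 0.0532. Summed as 1 gene, the pair had a log2 difference of 3.77 and an adjusted p of 0.0447. The Hspa1b call ended in 10 of the 17 fits that each left out 1 library. These were the fits without KO core F318, F322 or F86, WT core F164, H719, H873 or pool, KO rim F15, and either WT rim library, with adjusted p-values from 0.0507 to 0.230 and log2 differences from 3.12 to 4.65. DESeq2, which called 1853 of all genes between the WT sites, gave adjusted p-values of 0.000468 for Hspa1a and 0.000675 for Hspa1b. The Hspa1b call also ended with no filter on low counts (adjusted p = 0.0752) and with limma voom (0.142 with the identifier as a block, 0.145 without).

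The mitochondrial pair and Hsp90ab1 also separated the WT sites without passing. Hspe1 was at 81.6, 105, 86.5, 85.9 and 111 CPM in WT core and 63.8 and 46.5 CPM in WT rim, a log2 difference of 0.77 (SE 0.225, adjusted p = 0.0684). Hspd1 was at 294, 392, 317, 299.6 and 364 CPM in WT core and 214 and 207 CPM in WT rim, a log2 difference of 0.66 (SE 0.211, adjusted p = 0.0945). DESeq2, which called 1853 of all genes here, called both, at adjusted p-values of 0.0160 and 0.0326. Hsp90ab1 had a log2 difference of 0.56 (SE 0.220, adjusted p = 0.183), with all 5 core libraries at 1742 CPM or more and both rim libraries at 1466 CPM or less. In all, 5 chaperones had every core library above both rim libraries, as 10.1% of all genes did. Only 1, Dnaja1, had every core library below, as 9.68% of all genes did. The 5 were read in the same libraries and include the near-identical Hspa1 pair, so they are not separate observations.

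The J-domain genes ran the other way. Dnaja1 was at 401, 461, 398, 406 and 512 CPM in WT core and 796 and 577 CPM in WT rim, a log2 difference of -0.66 (SE 0.268, adjusted p = 0.202). Dnajb1 was at 167, 294, 214, 198 and 234 CPM in WT core and 418 and 282 CPM in WT rim, a log2 difference of -0.66 (SE 0.292, adjusted p = 0.239), and only H719 of the core libraries reached into the rim range. Hspa8, Hsp90aa1 and Hsph1 overlapped between sites, with log2 differences of 0.13, 0.05 and 0.33.

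Within KO, no chaperone was called between core and rim (0% of all genes tested), and none separated the groups, as 0.8% of all genes did in each direction. Among all genes 1600 had an unadjusted p under 0.05, and DESeq2 called 33 genes and no chaperone. Dnajb1 ranged from 204 to 298 CPM in KO core with a median of 236 CPM, against 306, 413, 712 and 275 CPM in KO rim, a log2 difference of -0.78 (SE 0.229, adjusted p = 0.620). Dnaja1 ranged from 312 to 674 CPM in KO core, against 656, 772, 1279 and 657 CPM in KO rim, a log2 difference of -0.69 (SE 0.210, adjusted p = 0.620). For each gene only the top of the core range passed the lowest rim library, and without KO rim F86 both log2 differences were -0.42.

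Hspa8 had a log2 difference of -0.46 (SE 0.172, adjusted p = 0.620) in KO, or -0.21 without KO rim F86. Hsph1 was at -0.57 (SE 0.357) and Hsp90aa1 at -0.36 (SE 0.206), and without F86 at -0.05 and -0.11. Hspa1a and Hspa1b, so far apart between the WT sites, were at 0.13 (SE 0.656) and 0.29 (SE 0.600) in KO, and at 0.96 and 1.02 without F86. Hspd1, Hspe1 and Hsp90ab1 lay between -0.13 and -0.01.

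The mean of the 2 site differences, 1 per genotype, called 3 chaperones, where 6.37% of all genes tested were called, 3.31% higher and 3.06% lower. Dnaja1 fell in core relative to rim by 0.67 on the log2 scale (SE 0.170, adjusted p = 0.0264), and Dnajb1 fell by 0.72 (SE 0.185, adjusted p = 0.0284). Hspa1b rose by 1.99 (SE 0.554, adjusted p = 0.0422), where the estimate was 3.69 in WT and 0.29 in KO (1.02 in KO without KO rim F86). Hspa1a was at 2.04 (SE 0.613, adjusted p = 0.0586), and the other 6 lay between -0.16 and 0.38 with none called. The Dnaja1 and Dnajb1 calls ended without WT rim H874, at adjusted p-values of 0.197 and 0.217. Dnajb1 also missed without KO rim F322, at 0.0512, and Dnaja1 without both WT core H719 and KO rim F86, at 0.0577. The Hspa1b call ended in 10 of the 17 fits without 1 library, those without KO core F318, F319 or F86, WT core H719 or pool, KO rim F15, F322 or O, and either WT rim library, with adjusted p-values from 0.0550 to 0.185. It also ended with no filter (0.0707), with limma voom (0.114 with the block, 0.118 without) and with the immediate early covariate (0.0541).

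**Figure D4:**
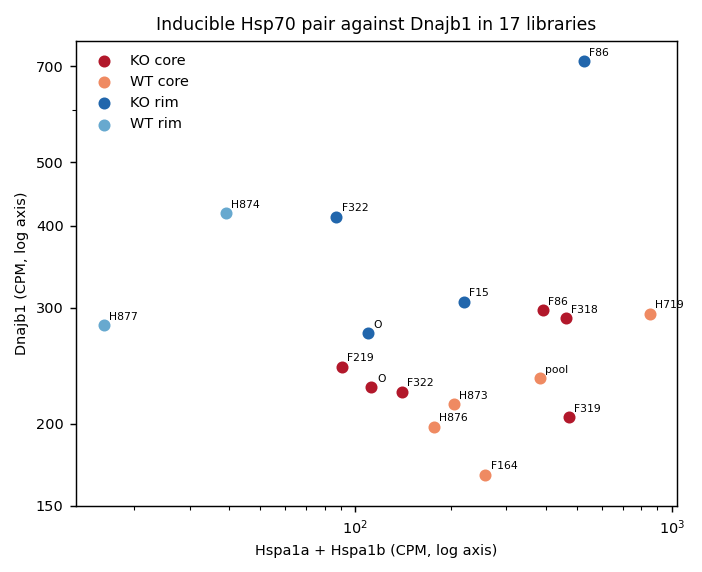
Summed CPM of Hspa1a and Hspa1b (horizontal axis, log scale) against CPM of Dnajb1 (vertical axis, log scale), 1 point per library and 1 marker per group. The WT rim libraries are at the far left with 16.0 and 38.9 CPM of the pair and 282 and 418 CPM of Dnajb1, and the WT core library H719 is at the far right with 851 CPM of the pair.

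Values of the same libraries were compared between genes over all 17 libraries, as 45 relations. Hspa1a and Hspa1b followed each other (Pearson r = 0.979, Spearman rho = 0.978, permutation p = 1e-05 for both, adjusted 9e-05 and 0.00015), and reads may have been exchanged between these near-identical genes. This p is the smallest that the permutations can give. Without the 2 libraries farthest from the median, r was 0.972. Dnajb1 and Dnaja1 did so too (r = 0.899, permutation p = 1e-05, adjusted 9e-05; rho = 0.855, p = 6e-05, adjusted 0.00045), with r = 0.816 without the 2 farthest libraries and 0.785 after group means were subtracted.

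Hspd1 and Hspe1, which share the promoter region shown above, had r = 0.925 and rho = 0.953 (permutation p = 1e-05 for both, adjusted 9e-05 and 0.00015), with r = 0.908 without the 2 farthest libraries. Hspd1 was as close to Hsp90ab1 (r = 0.917). Hsph1 was close to Hspa8 (r = 0.880) and Hsp90aa1 (r = 0.836), and Hspe1 to Hsp90ab1 (r = 0.875). Closeness was therefore not particular to the pairs described here. It did not hold for every pair either, with r = -0.16 for Hspa1a and Dnaja1 and 0.083 for Dnaja1 and Hspe1. Hspa1a and Dnajb1, both inducible and partners as proteins, were not related over the 17 libraries (r = -0.01, permutation p = 0.960; rho = 0.05, p = 0.856), while r was 0.58 after subtraction of the group means. The WT rim libraries, lowest for the one and second and eighth highest of 17 for the other, are the clearest instance in the plot of the pair against Dnajb1. All these relations share depth, scaling and cell makeup of the same libraries.

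Beyond the 10 chaperones, genes were ranked by Pearson r with the mean log2 CPM of the summed Hspa1 pair, Dnajb1 and Hsph1 over 17 libraries. The highest were Gemin2 (0.836), Lta (0.805), Npepps (0.794), Ncbp1 (0.775), Tradd, Eif4enif1, Twsg1 and Ahi1, out of 10394 candidates. That mean was not scaled by gene, and the summed pair ranged 53.2-fold against 4.26-fold for Dnajb1 and 6.37-fold for Hsph1. Hspa1a and Dnajb1 were not related over the 17 libraries, although r was 0.58 after group means were subtracted. Over all 17 libraries the mean is therefore not a profile shared by these genes. The genes most like the mean of Hspd1 and Hspe1 were Smc2 (0.924), Hspd1-ps3 (0.914), Mrps6 (0.894), Ska1 (0.894), Gm34828, Ncaph, Mrps15 and Kif11 (0.877). Hspd1-ps3 is a pseudogene copy of Hspd1, and its count was 8.64% to 11.2% of that of Hspd1 in all 17 libraries. Reads of this copy and of Hspd1 may have been exchanged in counting.

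Other genes of the protein-folding machinery were read from lists. None of the listed genes was called in KO minus WT in core or in core minus rim in KO, where 0% of all genes tested were called. Of 36 HSF1 targets and cochaperones, 1 was called between the WT sites, where 3.86% of all genes were, and it was lower in core. This was Dnajb4, a J-domain gene of the same class as Dnajb1, at 30.6 ± 7.40 CPM in WT core (SD, n = 5) and 86.7 ± 20.4 CPM in WT rim (SD, n = 2), with a log2 difference of -1.51 (SE 0.371, adjusted p = 0.0333). The list's median was 0.15, against 0.03 over all genes. Between genotypes in the rim none of the 36 was called (0% of all genes tested) and the median was 0.16. The smallest p-values there belonged to the Hsp70 cochaperone St13, at 176 ± 31.1 CPM in KO rim (SD, n = 4) and 122 ± 14.5 CPM in WT rim (SD, n = 2), and to the Hsp90 activator Ahsa1, at 142 ± 20.9 CPM in KO rim and 106 ± 2.98 CPM in WT rim, with log2 differences of 0.53 and 0.42 (adjusted p = 0.493 and 0.515).

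The 8 subunits of TRiC, the cytosolic chaperonin that folds actin and tubulin, all had positive estimates in WT core minus rim, with a median of 0.35. Of these Cct8 was called, where 3.86% of all genes were called. It was at 479 ± 22.5 CPM in WT core and 329.8 ± 6.19 CPM in WT rim, a log2 difference of 0.54 (SE 0.133, adjusted p = 0.0328). All 8 were also positive for KO minus WT in the rim, with a median of 0.20 and none called (0% of all genes tested). That comparison uses the same WT rim libraries. Of 10 genes of mitochondrial protein folding and turnover other than Hspd1 and Hspe1, none was called in WT core minus rim (3.86% of all genes), with a median of 0.20. None was called in KO minus WT in the rim either (0% of all genes tested), with a median of 0.11.

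Of 20 endoplasmic reticulum chaperones and unfolded protein response genes, 2 were called between the WT sites, in opposite directions, where 3.86% of all genes were called. Canx, the lectin chaperone calnexin, was at 845 ± 79.3 CPM in WT core and 536 ± 32.5 CPM in WT rim, a log2 difference of 0.66 (SE 0.158, adjusted p = 0.0303). Dnajb9, an ER J-domain gene, was at 104 ± 34.6 CPM in WT core and 265 ± 52.0 CPM in WT rim, a log2 difference of -1.34 (SE 0.346, adjusted p = 0.0406). The list's median was 0.25.

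Cell cycle genes rose in WT core relative to rim. Of 20 cell cycle genes 17 were called higher in WT core, as 2.1% of all genes were, with a median log2 difference of 1.76. The sum of the 20 was 2475 to 4486 CPM in WT core and 1340 to 1348 CPM in WT rim. Of 18 immediate early genes 9 had positive and 9 negative estimates. In this list 2 were called, both lower in WT core, as 1.76% of all genes were. Ier2 was at 386 ± 36.2 CPM in WT core and 991 ± 52.1 CPM in WT rim, a log2 difference of -1.36 (SE 0.167, adjusted p = 0.00195), and Junb at 1824 ± 263 CPM in WT core and 2895 ± 824 CPM in WT rim, a difference of -0.67 (adjusted p = 0.0403). The sum of the 18 was 6447 to 10894 CPM in WT core and 11456 to 11656 CPM in WT rim. With the mean of the immediate early genes as a covariate, the Hspa1b call between the WT sites was lost at an adjusted p of 0.0534, while its log2 difference was 3.70. That covariate is a mean of log2 CPM and, unlike the sum, did not separate the sites. It was 7.09 to 7.91 in WT core and 7.63 and 7.74 in WT rim. All 12 macrophage and monocyte markers had positive estimates too, with a median of 2.04 and 2 called higher, as 2.1% of all genes were. Their sum was 2308 to 6946 CPM in WT core and 1468 to 2520 CPM in WT rim. With the mean of markers of other cells as a covariate, the Hspa1b log2 difference was 4.39 (adjusted p = 0.00946). That mean joins all lists of other cells, and the part of macrophages alone was not tested. The part of the cell cycle genes in the chaperone differences was not tested.

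**Figure D5:**
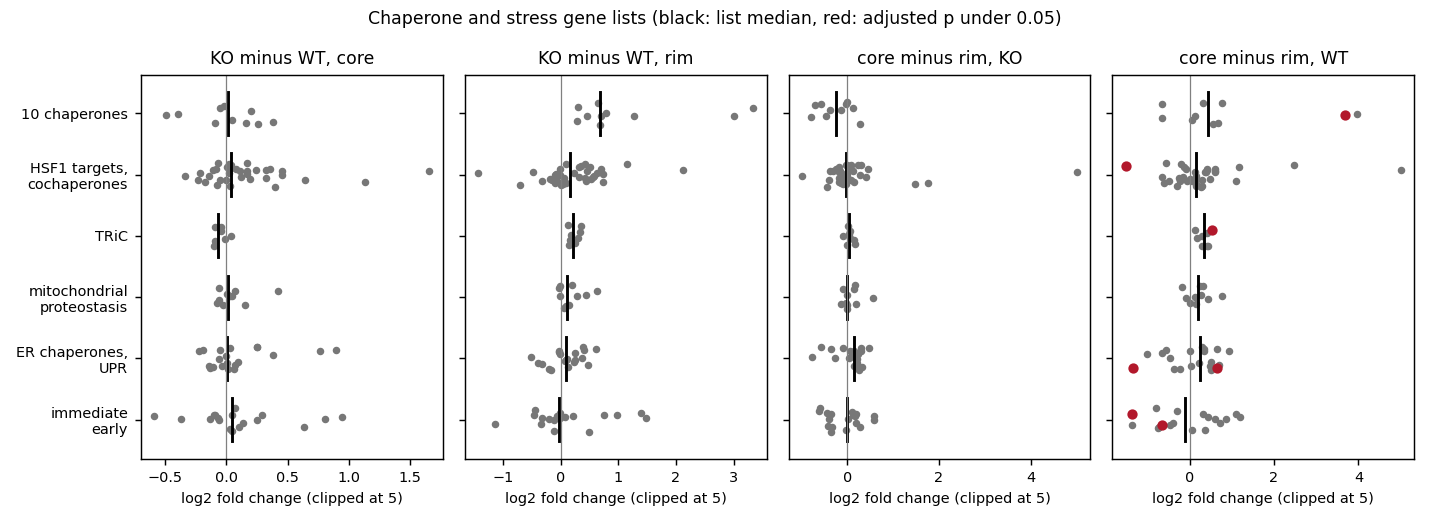
Fitted log2 fold changes of single genes (grey points, horizontal axis clipped at 5) for the chaperone genes and the related lists (vertical axis), 1 panel per comparison, with list medians in black and genes at an adjusted p under 0.05 in red. The red points of Dnajb4, Dnajb9, Ier2 and Junb are on the negative side of WT core minus rim and those of Hspa1b, Cct8 and Canx on the positive side.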

How the data were processed

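The authors deposited raw counts of reads for 17 libraries, by gene symbol and not normalized. Per the labels' protocols, RNA was taken with the Qiagen RNeasy Micro Kit and libraries with the TruSeq RNA Library Prep Kit. Tools listed in the submitters' processing notes are HISAT2, featureCounts, Subread 2.0.0, cutadapt 3.2 and Bowtie2 2.4.5, with the builds GRCm38 and mm10. No source used here gives strandedness or the treatment of reads that match several genes.

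Counts were analysed with edgeR 4.0.16 (R 4.3.3). Genes were kept by filterByExpr (20137 of 27240), libraries scaled by TMM, and a robust quasi-likelihood model was fitted to all 4 groups, which lends the 2 WT rim libraries the spread estimated over all groups. Tests were two-sided, adjusted by Benjamini-Hochberg over all genes kept, and called under 0.05. CPM are counts over TMM-scaled totals. SE is the log2 difference over the square root of F. On simulated counts with known changes, 14% of 2-fold and 64% of 4-fold changes were recovered for KO minus WT in the rim (64% and 91% in the core, 44% and 82% for core minus rim in KO, 21% and 73% in WT). These rates are over randomly drawn genes and need not hold for the Hspa1 pair, which varied far more than most genes.

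Alternatives were RLE scaling, no filter, DESeq2 1.42.0, limma 3.58.1 voom with and without the identifier as a block, a fixed block, covariates from immediate early genes or markers of other cells, the Hspa1 pair summed, each library left out, and WT core H719 and KO rim F86 left out together. The last of these and voom without the block were chosen after seeing the data. Correlation p-values are from 100000 permutations. All 10 members are named, and 1 item is not reported here. From each related list the called genes with the largest differences are named, or the 2 with the smallest p where none was called. The members and lists were chosen with earlier results of these data known. Positions and transcript lengths are from GENCODE M21 (GRCm38), using the shortest principal transcript.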

Additional observations from a re-analysis of the deposited data

Results flagged for a closer look

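The 10 genes were searched in 30 groups of 4 to 10 libraries for a single library far from the rest, and 2 were found. Chance alone flags about 1 in 20 groups. Hspa1a in the WT core library H719 was at 293 CPM, while the other 4 WT core libraries were at 63.1 to 103 CPM, a gap of 0.828 of the group's range. Without H719 the log2 difference of WT core minus rim was 3.27 for Hspa1a. Hsp90aa1 in the KO rim library F86 was at 485 CPM, while the other 3 KO rim libraries were at 251 to 282 CPM, a gap of 0.866 of the range. Without F86 the log2 difference of KO minus WT in the rim was 0.20 for Hsp90aa1.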

How the results depend on the processing

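Of 1580 values of single genes under the alternatives, 1467 kept direction and side of the threshold, 64 changed sign, 32 lost and 17 gained a call. The number of chaperones called stayed 0 under every alternative for KO minus WT in core, core minus rim in KO and the difference of the genotype effect. For KO minus WT in the rim DESeq2 called 2, and 272 over all genes. For WT core minus rim, 0 were called with no filter (634 over all genes), limma voom (556 with the block, 558 without) and the immediate early covariate (781). The other-cell covariate called 2 (458 over all genes) and DESeq2 called 4 (1853). Without 1 library 0 to 3 were called, with 0 without KO core F318 (743 over all genes) and 3 without KO rim F322 (851). For the mean of both genotypes, 2 were called with no filter (1098 over all genes), voom and the block (1160), and the immediate early covariate (1264), each without Hspa1b. DESeq2 (2393 over all genes) and the other-cell covariate (973) each called 4. Hspa1a was then at adjusted p-values of 0.00485 with DESeq2 and 0.0116 with that covariate. With 1 library left out from a group other than WT rim, 1 (without KO rim F322, 781 over all genes) to 4 (without KO core F219, 1042) were called. The cause of these changes was not tested.

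Over all genes, DESeq2 called 12 (KO minus WT in core), 272 (rim), 33 (core minus rim in KO), 1853 (WT), 2393 (mean of both genotypes) and 159 (difference of the genotype effect). For KO minus WT in the rim, 2 were called with no filter, 8 with limma voom and the replicate block, 9 without the block, and 0 to 26 without 1 library. For core minus rim in KO the voom block called 2. For WT core minus rim, the other-cell covariate gave 458, leaving out WT core H719 and KO rim F86 gave 467, and leaving out 1 library gave 68 to 851. For the mean, leaving out both gave 814 and 1 library 189 to 1560. For the difference of the genotype effect, no filter gave 4, the immediate early covariate 1, and 1 library left out 0 to 14. Without WT rim H877 the median of all genes shifted to 0.20 for KO minus WT in the rim and 0.23 for WT core minus rim.

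With WT core H719 and KO rim F86 both left out, log2 differences were 0.16 (Hspa1a), 0.096 (Hspa1b) and 0.00080 (Hspd1) for KO minus WT in core, and -0.075 (Dnajb1) in the rim. They were 0.072 (Hsp90ab1), 0.093 (Hspd1) and 0.11 (Hspe1) for core minus rim in KO, -0.016 (Hsp90aa1) in WT and 0.11 (Hsph1) for the mean. For the difference of the genotype effect they were 0.35 (Dnajb1) and 0.24 (Dnaja1). The other-cell covariate gave -0.087 (Hsp90aa1, KO minus WT in core) and 0.072 (Hsph1, mean), and the immediate early covariate 0.030 (Hsp90ab1) and 0.0064 (Hspd1), both KO minus WT in core.

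F322, F86 and O name a core and a rim KO library each, and the deviations of these pairs correlated at 0.0721, 0.0449 and 0.0818. Pairs with different identifiers ran from -0.20 to 0.24, so this cannot tell whether the pairs are of the same animals. In core and rim, Hspa1a was at 34.3 and 20.1 CPM (F322), 125 and 178 CPM (F86), and 29.1 and 37.1 CPM (O). Dnajb1 was at 224 and 413, 298 and 712, and 227 and 275 CPM. The block was not used in the main fit, which took the KO libraries as separate. With the block on these 3 pairs, core minus rim in KO was -0.052 (Hspa1a), 0.094 (Hspd1) and 0.021 (Hspe1). On the same pairs without the block it was -0.33 (Hspa1a), -0.11 (Hspa1b), 0.099 (Hspd1) and 0.0095 (Hspe1). Hspe1 was at 0.0031 with the voom block and 0.0013 without it.

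Leaving out 1 library turned some signs. For KO minus WT in core, the lowest and highest values were -0.74 and 0.19 (Hspa1a), -0.62 and 0.13 (Hspa1b), -0.087 and 0.14 (Hsp90aa1), -0.11 and 0.041 (Hsp90ab1), and -0.14 and 0.035 (Hspd1), and in the rim -0.075 and 0.59 (Dnajb1). For core minus rim in KO they were -0.17 and 0.96 (Hspa1a), -0.22 and 0.072 (Hsp90ab1), -0.13 and 0.093 (Hspd1), and -0.12 and 0.11 (Hspe1). In WT they were -0.022 and 0.32 (Hspa8) and -0.051 and 0.13 (Hsp90aa1), for the mean -0.21 and 0.14 (Hsph1), and for the difference of the genotype effect -0.43 and 0.22 (Dnajb1) and -0.29 and 0.22 (Dnaja1). Where 1 WT rim library was left out, the other was assumed to vary like the other groups. Every comparison with WT rim rests on 2 libraries, whereas the lowest count of a chaperone in any library was 125.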
